A study of Homo sapiens with 35 samples.

Results

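The effect of a single knockout (SKO) of SUV39H1 was compared between U937 and THP-1, human acute myeloid leukaemia cell lines with monocytic features. For each gene, the SKO effect in THP-1 (SKO minus sgControl, log2) was subtracted from the SKO effect in U937, so that a positive difference means that SKO moved the gene upward in U937 relative to its movement in THP-1. The comparison used 12 of the 35 libraries of the series, 3 in each of 4 untreated groups, and tested 18715 genes. The U937 SKO and THP-1 SKO cells were both labelled with the guide sgSUV39H1-3, and the U937 sgControl and THP-1 sgControl cells with a control guide. Names of the THP-1 SKO and sgControl libraries also carry clone 1, so each THP-1 group may stand for 1 clone, in which case genotype and clone cannot be told apart. No label says whether the 3 libraries of a group are separate cultures, and the p-values therefore reflect spread among libraries that may be technical. Both lines were grown in RPMI-1640, and the THP-1 medium also held beta-mercaptoethanol. The compared U937 and THP-1 libraries carry different numbers in their names, which the labels do not explain, so line and whatever the number marks cannot be told apart for a level compared between lines. Each SKO group carries the same number as its own sgControl group. Within U937, 1 SKO and 1 sgControl library also carry a code of their own (S0_L001), whose meaning is not given.

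SUV39H1 is a histone methyltransferase that places trimethylation on lysine 9 of histone H3, and SUV39H2 is its paralog. The mark recruits heterochromatin proteins and keeps satellite repeats, many transposable elements and some genes silent. The series title asks whether the enzymes restrain immunity that transposable elements provoke. In such a response, double-stranded RNA or cytosolic DNA is read by sensors, adaptors and kinases switch on interferon regulatory factors, and secreted interferon acts through JAK kinases and STAT proteins on interferon-stimulated genes. These encode antiviral effectors and the machinery that shows peptides on MHC class I. Only gene counts were analysed here, not transposable elements.

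Counted reads per library ran from 33916842 to 41670914 in U937 SKO, 35419849 to 42785519 in U937 sgControl, 56881318 to 61178704 in THP-1 SKO and 51181859 to 60222776 in THP-1 sgControl. Levels are given as CPM, reads scaled to a common library total after trimmed mean of M-values, and effects and differences as log2 values with standard errors. A gene was called at an adjusted p of 0.05 in edgeR's quasi-likelihood test with Benjamini-Hochberg adjustment over all 18715 genes. Both lines showed the leukocyte gene PTPRC (CD45), at means of 328.1 CPM in U937 SKO, 135.8 CPM in U937 sgControl, 289.5 CPM in THP-1 SKO and 399.5 CPM in THP-1 sgControl. CD33, a myeloid surface marker, averaged 78.9, 62.9, 74.8 and 64.8 CPM in the same order of groups. CD14, a marker of mature monocytes, was near 0 in U937 SKO (0.05 CPM) and U937 sgControl (0.09 CPM) and averaged 5.57 CPM in THP-1 SKO and 3.47 CPM in THP-1 sgControl.

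The targeted gene did not lose its transcript in either line. SUV39H1 (X:48695554-48709016, plus strand, GRCh38) had 112.3, 115.3 and 107.6 CPM in U937 SKO, against 67.3, 68.0 and 61.6 CPM in U937 sgControl. The THP-1 libraries had 98.9, 88.0 and 94.3 CPM in SKO, against 35.7, 36.3 and 31.6 CPM in sgControl. All SKO libraries of a line lay above all its sgControl libraries. The effect was 0.77 ± 0.05 in U937 and 1.44 ± 0.05 in THP-1 (log2), a difference of -0.67 ± 0.07 (adjusted p = 1.6e-10). Edited alleles can still be transcribed and counts per gene show no edited sequence, so the SKO labels were not checked by these values. SUV39H2 (10:14878820-14904315, plus strand) averaged 35.3 CPM in U937 SKO and 42.5 CPM in U937 sgControl, and 20.1 CPM in THP-1 SKO and 31.2 CPM in THP-1 sgControl. It fell in both lines, by 0.27 in U937 and by 0.63 in THP-1 (log2). Its difference of 0.37 ± 0.09 (adjusted p = 0.00086) turned to -0.43 when each gene was set against the median effect of its own 20 Mb bin. SUV39H2 lies on chromosome 10.

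Chromosome 10 was treated apart. In THP-1, 476 of its 680 tested genes (70.0%) fell with SKO and 10 (1.47%) rose, and the median effect over its 404 better expressed genes (log2 CPM averaging 2 or more) was -0.98. This held along the chromosome, since the median THP-1 effect lay between -1.01 and -0.94 in each of 7 bins of 20 Mb. In U937 the median effect over the same genes was -0.04, and the median difference was 0.94. No other chromosome had a median THP-1 effect of this size. In U937 smaller shifts stood on the X chromosome, with a median effect of 0.40 over 354 genes, on chromosome 15 (0.21), on chromosome 18 (-0.20) and on chromosome 21 (-0.19). The median U937 effect reached 0.76 in the bin from 40 to 60 Mb of chromosome 6. Results on chromosome 10 genes are given at the end, and counts below are over the 18035 other genes.

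**Figure D1:**
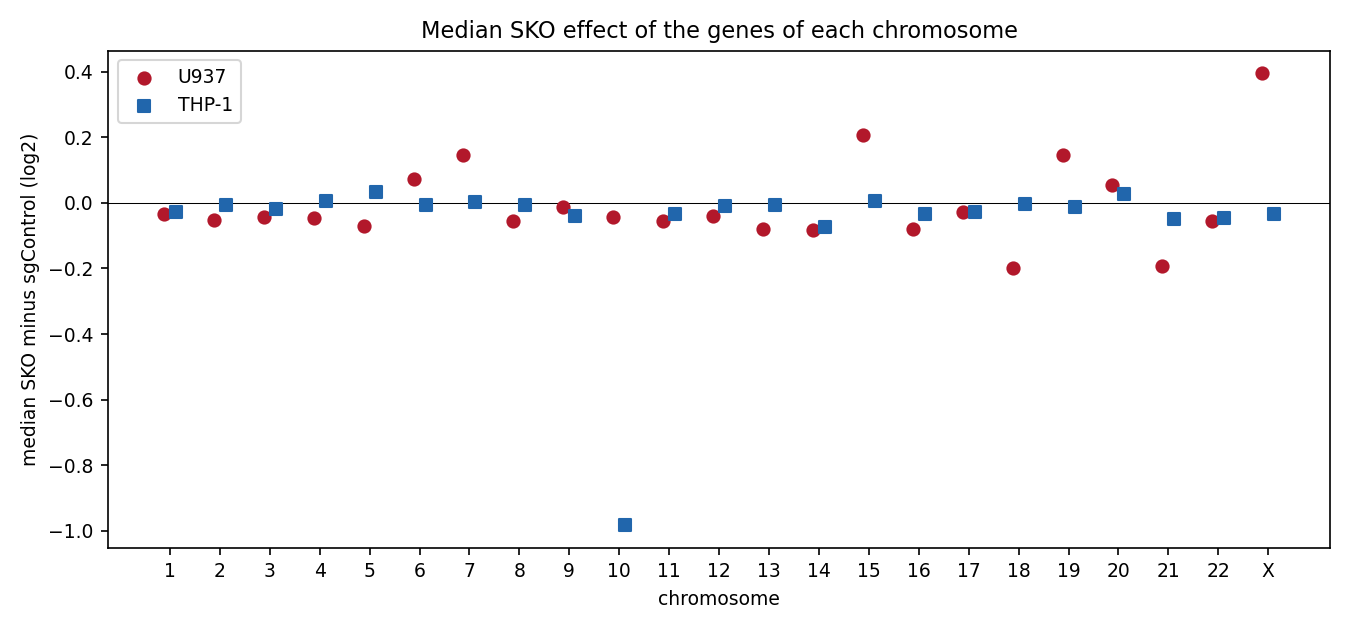
Median SKO effect (log2, SKO minus sgControl) of the genes of each chromosome whose log2 CPM averaged 2 or more, with circles for U937 and squares for THP-1. The THP-1 value of chromosome 10 is -0.98, while its U937 value is -0.04, and the U937 value of the X chromosome is 0.40.

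Off chromosome 10, the SKO effects of the lines differed in both directions and for many genes. The difference was higher in U937 for 4135 genes (22.9%) and lower for 4217 (23.4%), and 1501 of the higher (8.32%) and 1382 of the lower (7.66%) were also at least 2-fold. Within U937, 4400 genes (24.4%) rose and 4361 (24.2%) fell with SKO, and within THP-1, 3693 (20.5%) rose and 3817 (21.2%) fell. The genes that rose in both lines numbered 1149, which is 26.1% of those that rose in U937 and 31.1% of those that rose in THP-1. A larger number, 1400, rose in U937 and fell in THP-1, which is 31.8% of those that rose in U937 and 36.7% of those that fell in THP-1. The reverse, a fall in U937 and a rise in THP-1, was found for 1043 genes. With chromosome 10 included, 8752 differences (46.8%) were called, and 1522 (8.13%) and 1044 (5.58%) genes moved oppositely in these directions. Across the 11487 genes off chromosome 10 whose log2 CPM averaged 1 or more, the effects of the lines correlated by -0.03 (Pearson) and -0.04 (Spearman). Genes are not independent replicates, and the lines share no library but were scaled together.

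**Figure D2:**
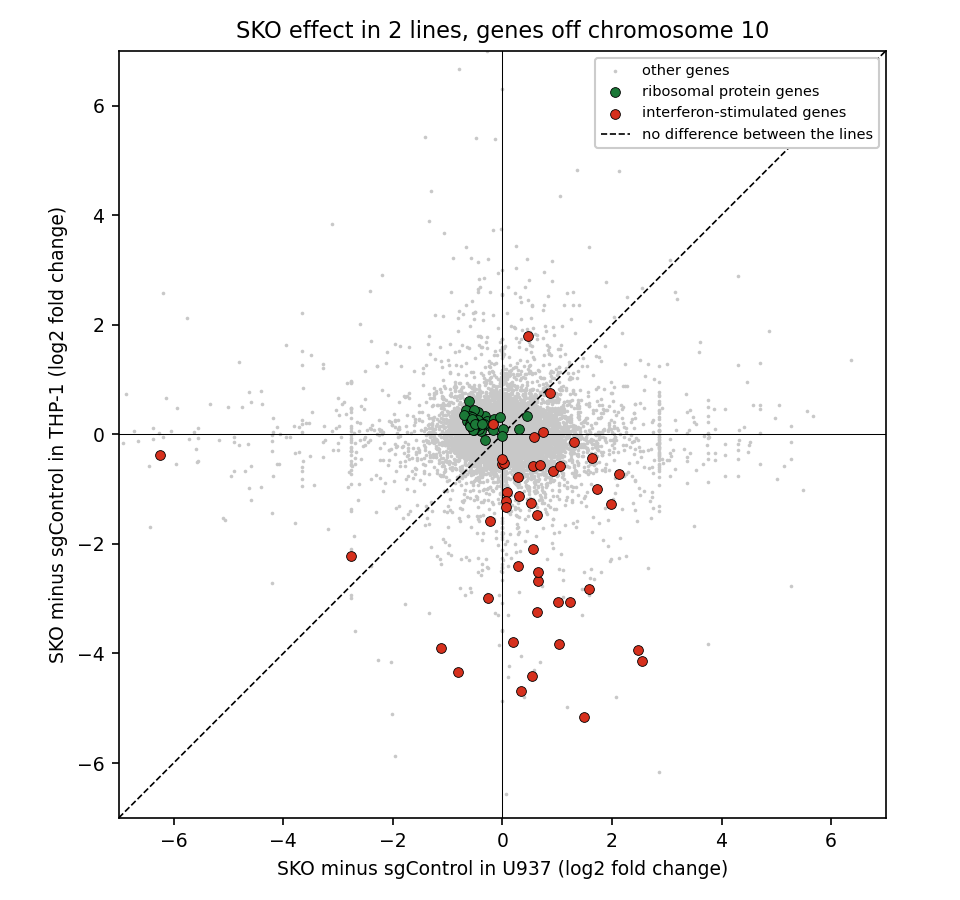
SKO effect of each gene in U937 (horizontal axis, log2) and in THP-1 (vertical axis, log2). Genes are those off chromosome 10 whose log2 CPM averaged 1 or more. Interferon-stimulated genes are in red and ribosomal protein genes in green, with a dashed line where the effects are equal. The axes hold 11454 of the 11487 genes. Most interferon-stimulated genes lie below 0 in THP-1, many of them right of 0 in U937, and most ribosomal protein genes lie left of 0 in U937 and above 0 in THP-1.

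Of the 4135 genes with a higher difference, 1400 moved in opposite directions, 1401 were called in U937 alone, 675 in THP-1 alone, 554 moved the same way by different amounts, and 105 passed in neither line. Of the 4217 with a lower difference, the counts in the same order were 1043, 1749, 760, 535 and 130. A further 1154 genes (6.4%) moved the same way in both lines with no difference called.

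The interferon-stimulated genes gave the largest median difference among the lists of more than 20 tested genes. Of 52 listed genes off chromosome 10, 51 passed the filter on low counts, and the difference was higher for 43 and lower for 3, where 22.9% and 23.4% of all genes were called. Their median difference was 2.11, against -0.03 over all genes off chromosome 10. In THP-1, 45 of the 51 fell and 3 rose, with a median effect of -1.48. In U937, 25 rose and 7 fell, with a median effect of 0.54. There were 22 members that rose in U937 and fell in THP-1, and 1, TRIM14, that did the reverse, against 7.76% and 5.78% of all genes.

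The promoters of several members are shown because they hold letters of the core of the element to which interferon-activated factors bind. The letters searched were GAAANNGAAA on either strand (TTTCNNTTTC when read from the other strand), in the window from 250 bases before to 50 after each gene's start, and matches may overlap. Sequences are RefSeq's, build GRCh38.p14, read along the gene's strand with matches in capitals. Each is a stretch that stops at or before the start, so it may not hold every match. OAS3 has 2 matches, not all of which are shown.
ISG15, chr1:1013354-1013429, plus strand: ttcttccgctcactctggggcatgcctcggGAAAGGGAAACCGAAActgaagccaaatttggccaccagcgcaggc
OAS3, chr12:112938301-112938370, plus strand: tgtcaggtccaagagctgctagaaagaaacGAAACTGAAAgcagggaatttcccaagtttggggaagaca
PARP14, chr3:122680780-122680838, plus strand: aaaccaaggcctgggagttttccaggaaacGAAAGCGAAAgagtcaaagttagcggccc
TRIM14, chr9:98119223-98119278, minus strand: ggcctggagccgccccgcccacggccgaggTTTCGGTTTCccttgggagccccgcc
RTP4, chr3:187368313-187368384, plus strand: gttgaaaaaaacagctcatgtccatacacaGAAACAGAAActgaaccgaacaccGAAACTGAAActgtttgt
ISG15, OAS3 and PARP14 had a higher difference, while TRIM14 and RTP4 stood outside that majority. Over all 35116 single promoters in RefSeq's table, the letters are in 1255 (3.57%). Counted per tested gene, with a match in any of its promoters, they are in 32 of 43 list genes found there (74.4%). The same count over all 12075 tested genes found there is 492 (4.07%). By the same count, the letters are in 12 of 20 genes of the MHC class I list (60.0%) and in 1 of 15 of the interferon signalling list (6.67%). Among genes off chromosome 10, they are in 165 of 3239 genes with a higher difference (5.09%), in 3.36% of those with a lower difference and in 200 of 5250 with no call (3.81%). A match is a description of these letters and not a bound site.

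OAS2 (12:112978395-113011723, plus strand), a synthetase of the 2-5A messenger that activates RNase L, had 5.63, 7.56 and 6.33 CPM in U937 SKO, against 0.849, 1.31 and 1.36 CPM in U937 sgControl. Levels in THP-1 were 7.84, 8.98 and 7.61 CPM in SKO, against 125.6, 123.3 and 125.2 CPM in sgControl. SKO libraries were thus the higher ones in U937 and the lower ones in THP-1, with no overlap in either line; SKO and sgControl libraries were apart for 54.6% of all genes in U937 and for 47.9% in THP-1. The difference of the effects was 6.42 ± 0.16 (adjusted p = 3.1e-30). The 4 members of the 2-5A synthetase group all had a higher difference, with a median of 4.35. OAS3 had 52.8, 53.7 and 51.8 CPM in U937 SKO, against 21.3, 22.5 and 23.2 CPM in U937 sgControl. In THP-1 SKO it had 13.2, 13.6 and 14.6 CPM, against 116.5, 113.7 and 116.2 CPM in THP-1 sgControl. The groups did not overlap, and the difference was 4.31 ± 0.08. OASL fell in THP-1 (-3.11) and was not called in U937 (0.13, adjusted p = 0.82).

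ISG15, a ubiquitin-like modifier, had 16.1, 14.96 and 12.6 CPM in U937 SKO, against 7.47, 7.18 and 7.10 CPM in U937 sgControl. THP-1 cells showed 4.75, 5.12 and 5.27 CPM in SKO, against 49.1, 38.2 and 38.5 CPM in sgControl. Its effects were opposite and its groups apart in both lines, with a difference of 4.06 ± 0.14 (adjusted p = 3.9e-26). MX1, a dynamin-like antiviral GTPase, had 2.02, 2.37 and 2.86 CPM in U937 SKO, against 1.51, 1.61 and 1.87 CPM in U937 sgControl. In THP-1 SKO it had 2.52, 2.41 and 3.35 CPM, against 62.8, 57.4 and 55.5 CPM in THP-1 sgControl. Most of its difference of 4.94 ± 0.25 thus lay in THP-1, although the U937 rise of 0.54 was also called (adjusted p = 0.026). SIGLEC1 (20:3686970-3712600, minus strand), a sialic acid-binding receptor of macrophages, had 1.63, 1.12 and 1.48 CPM in U937 SKO, against 0.189, 0.396 and 0.113 CPM in U937 sgControl. It had 1.83, 2.10 and 1.83 CPM in THP-1 SKO, against 34.4, 33.4 and 34.3 CPM in THP-1 sgControl. Its difference was 6.68 ± 0.30, from low levels in 3 of the 4 groups. HELZ2, a transcriptional coactivator with helicase domains, had its larger effect in U937, at 2.14 against -0.72 in THP-1.

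**Figure D3:**
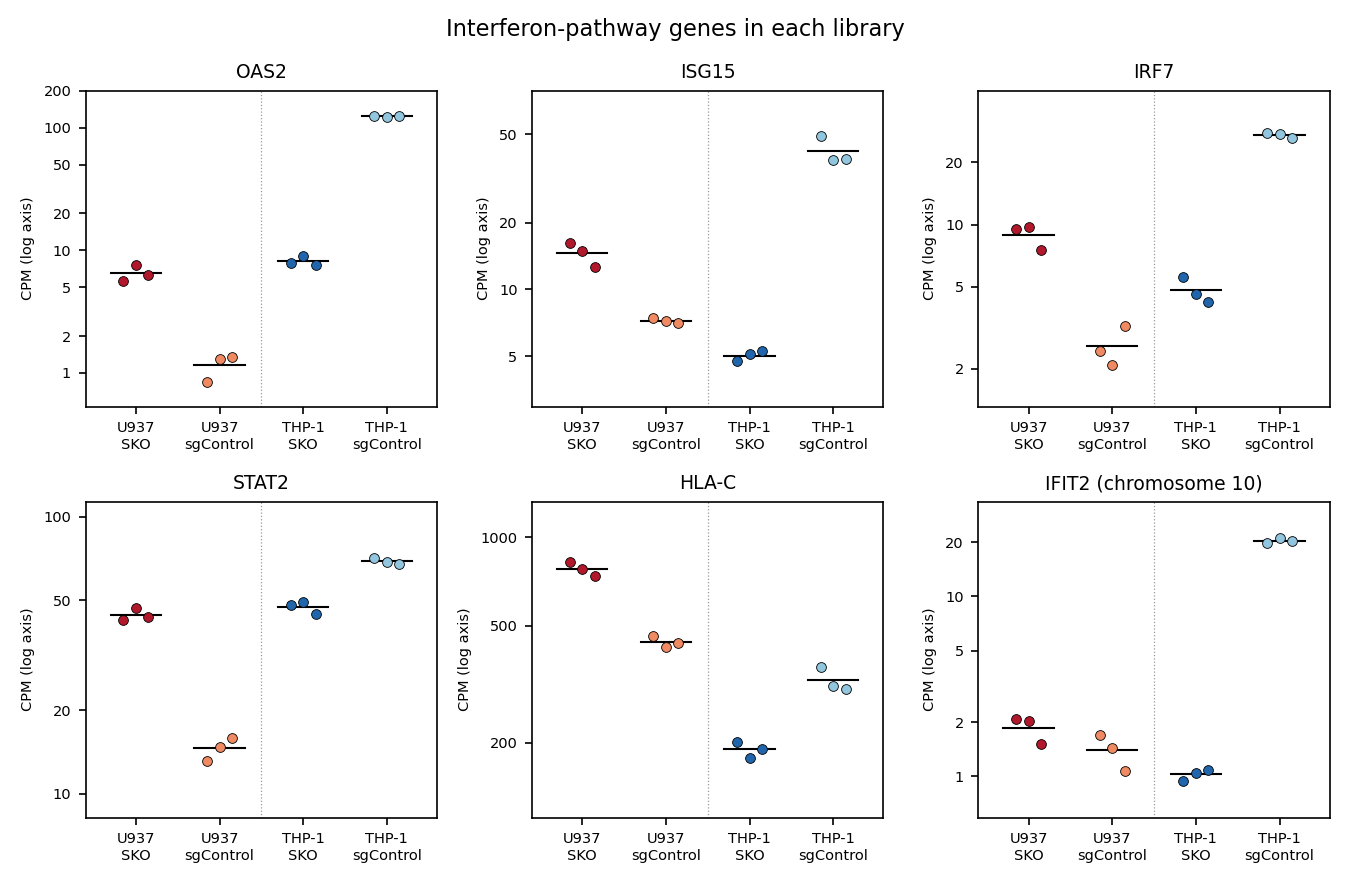
Level (CPM, log axis) of 6 interferon-related genes in each library, by group, with SKO left of sgControl in each line and bars at group means. OAS2, ISG15, IRF7, STAT2 and HLA-C are higher in SKO than in sgControl in U937 and lower in THP-1. IFIT2, which lies on chromosome 10, is about 20 CPM in THP-1 sgControl and from 0.942 to 2.07 CPM in every SKO library.

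Not all members behaved in this way. MX2, a relative of MX1, had 128.9, 129.6 and 130.6 CPM in U937 SKO, against 233.4, 228.9 and 223.7 CPM in U937 sgControl. In THP-1 the levels were 3.73, 3.68 and 3.597 CPM in SKO, against 73.2, 75.2 and 73.0 CPM in sgControl. It fell in both lines and by more in THP-1, for a difference of 3.51 ± 0.08. GBP5, an interferon-inducible GTPase, fell in both, by 2.76 in U937 and by 2.22 in THP-1, and its difference of -0.53 ± 0.23 was not called (adjusted p = 0.059). TNFSF10, the death ligand TRAIL, rose in both, by 0.88 in U937 and by 0.75 in THP-1, with a difference of 0.13 ± 0.15 (adjusted p = 0.54). GBP2 had a lower difference (-1.32 ± 0.37), since it rose by 1.80 in THP-1 and was not called in U937 (0.47, adjusted p = 0.17). TRIM14, an adaptor of antiviral signalling, fell by 0.17 in U937 and rose by 0.19 in THP-1, a difference of -0.36 ± 0.06. The third member with a lower difference, RTP4, had 0 reads in all U937 SKO libraries and a mean of 0.219 CPM in U937 sgControl, against means of 5.80 CPM in THP-1 SKO and 7.55 CPM in THP-1 sgControl.

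The levels of this list in the lines were closer to each other under SKO than under sgControl. In SKO, 26 of the 51 members were lower in U937 than in THP-1, with a median of -0.08 (log2 of the ratio of mean CPM, each plus 0.5). In sgControl, 42 of the 51 were lower in U937, with a median of -1.93. The gap was narrower in SKO for 36 members (70.6%), where it was narrower for 51.0% of all genes off chromosome 10. These levels are compared across lines, and so across the unexplained numbers in the library names. The change of the gap from sgControl to SKO restates the difference of the effects and is no separate result.

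Signalling upstream of these genes differed as well, with smaller values. All 7 interferon genes on the list were below the filter on low counts. Of 19 tested interferon signalling genes, the difference was higher for 10 (52.6%) and lower for 1 (5.3%), beside 22.9% and 23.4% over all genes. The median was 0.65. The kinases and transcription factors held 8 of the 10. IRF7, the regulatory factor that amplifies type I interferon transcription, had 9.48, 9.72 and 7.56 CPM in U937 SKO, against 2.45, 2.10 and 3.22 CPM in U937 sgControl. Its THP-1 levels were 5.58, 4.59 and 4.23 CPM in SKO, against 27.9, 27.4 and 26.4 CPM in sgControl. The groups were apart and moved oppositely in the lines, with a difference of 4.31 ± 0.18 (adjusted p = 1.8e-23). STAT2 had 42.4, 46.7 and 43.4 CPM in U937 SKO, against 13.1, 14.8 and 15.9 CPM in U937 sgControl, and 48.2, 49.2 and 44.4 CPM in THP-1 SKO, against 71.0, 68.8 and 67.5 CPM in THP-1 sgControl. Its difference of 2.15 ± 0.09 came mostly from the U937 rise of 1.598. The kinase TYK2 rose in U937 and fell in THP-1 (difference 1.18 ± 0.07, or 0.76 against its bin on chromosome 19), JAK2 rose in both and by more in U937 (0.96 ± 0.08), and IRF2 rose in both and by more in THP-1 (-0.69 ± 0.10). IRF9, the DNA-binding partner of STAT2, was not called (1.62 ± 0.70, adjusted p = 0.055).

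Among 23 tested genes of nucleic acid sensing, the difference was higher for 16 (69.6%) and lower for 1 (4.3%), with a median of 0.67. Over all genes the shares were 22.9% and 23.4%. RNA sensors and adaptors gave 7 higher of 11, and DNA sensors and adaptors 4 of 5. MAVS, the mitochondrial adaptor of RNA sensors, had 453.6, 467 and 457.1 CPM in U937 SKO, against 222.7, 232.3 and 223.8 CPM in U937 sgControl. In THP-1 it had 76.5, 79.7 and 77.7 CPM in SKO, against 76.8, 74.0 and 72.2 CPM in sgControl, groups that overlap. Its difference of 0.95 ± 0.06 was thus a U937 change. IFIH1 (MDA5), a sensor of long double-stranded RNA, was the converse, with an effect of -0.02 in U937 (adjusted p = 0.86) and -0.93 in THP-1. DHX58 (LGP2), a regulator of RNA sensing, rose by 1.15 in U937 and fell by 1.66 in THP-1. Its U937 levels were low and overlapped, at 1.33, 1.65 and 0.723 CPM in SKO, against 0.731, 0.536 and 0.396 CPM in sgControl. EIF2AK2 (PKR), a kinase switched on by double-stranded RNA, fell in both lines, by 0.16 in U937 and by 1.43 in THP-1. Against its bin, the U937 effect of EIF2AK2 was not called (-0.10, adjusted p = 0.10). The DNA sensor CGAS was not called (-0.11 ± 0.09, adjusted p = 0.32), and IKBKE had the list's lower difference (-0.30 ± 0.09).

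MHC class I presentation had 24 genes, all tested, of which 20 (83.3%) had a higher and 1 (4.2%) a lower difference, with a median of 0.83. Over all genes the shares were 22.9% and 23.4%. All 7 chain genes and all 5 immunoproteasome genes were among the higher. Moreover, 11 members rose in U937 and fell in THP-1, against 7.76% of all genes. HLA-C (6:31268749-31272130, minus strand) had 825.1, 781.5 and 736.5 CPM in U937 SKO, against 462.3, 422.6 and 436.1 CPM in U937 sgControl. The THP-1 libraries had 202, 178 and 190.6 CPM in SKO, against 361.3, 312.7 and 304.5 CPM in sgControl. SKO libraries were above sgControl in U937 and below in THP-1 without overlap, and the difference was 1.61 ± 0.07 (adjusted p = 2.9e-18). HLA-B gave 1.43 ± 0.06 and the light chain B2M 1.05 ± 0.05, each higher in U937 SKO and lower in THP-1 SKO than in its sgControl. The U937 rise of B2M, of 0.25, was not called against its bin on chromosome 15 (0.05, adjusted p = 0.31). HLA-F (6:29722775-29738528, plus strand), a nonclassical chain, fell by 4.31 in THP-1 and was not called in U937 (0.59, adjusted p = 0.089). HLA genes are near-identical copies, and reads that map to several places were left out, so their separate values are uncertain.

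The peptide transporter TAP1 rose in U937 (0.29) and fell in THP-1 (-1.26). TAP2, the other subunit of the same transporter, was the only member with a lower difference (-0.78 ± 0.09), as it fell by 0.96 in U937 and by 0.18 in THP-1. The THP-1 fall of TAP2 was not called against its bin (adjusted p = 0.15). NLRC5, the transactivator of class I genes, rose by 0.43 in U937 and fell by 0.43 in THP-1. In class II presentation, the difference was higher for 3 (21.4%) and lower for 1 (7.1%) of 14 tested genes. Over all genes the shares were 22.9% and 23.4%, so the higher share of this list was no larger. HLA-DRA, the alpha chain of HLA-DR, had a difference of 1.86 ± 0.34 from low U937 levels, which averaged 0.792 CPM in SKO and 0.259 CPM in sgControl, against 6.95 CPM in THP-1 SKO and 8.49 CPM in THP-1 sgControl. The lower one was HLA-DRB1, a beta chain (-1.71 ± 0.13), which averaged 2.36 CPM in U937 SKO and 10.7 CPM in U937 sgControl, and 73.9 CPM in THP-1 SKO and 102.1 CPM in THP-1 sgControl. The class II transactivator CIITA was not called (-0.47 ± 0.36, adjusted p = 0.31).

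Among 20 tested genes of immune ligands and checkpoints, the difference was higher for 12 (60.0%) and lower for 4 (20.0%), and the median was 0.65. Over all genes the shares were 22.9% and 23.4%. Among them, 7 rose in U937 and fell in THP-1, and 0 did the reverse, against 7.76% and 5.78% of all genes. CD276 (B7-H3; 15:73683966-73714514, plus strand), a B7 family checkpoint ligand, had 40.0, 36.7 and 36.7 CPM in U937 SKO, against 4.53, 5.20 and 4.30 CPM in U937 sgControl. Levels in THP-1 were 132.6, 122.1 and 125.2 CPM in SKO, against 185.1, 175.6 and 167.5 CPM in sgControl. U937 SKO was the higher group and THP-1 SKO the lower one, and the difference was 3.49 ± 0.09. CD70 (19:6583183-6604103, minus strand), the ligand of CD27, had 16.8, 14.2 and 16.7 CPM in U937 SKO, against 2.97, 2.80 and 2.63 CPM in U937 sgControl. It had 56.9, 58.9 and 56.9 CPM in THP-1 SKO, against 120.1, 117.2 and 104.4 CPM in THP-1 sgControl. The levels stayed higher in THP-1, while the difference of the effects was 3.48 ± 0.11 in favour of U937. TNFRSF14 (HVEM; 1:2555639-2565382, plus strand), a ligand of BTLA, had 23.1, 22.01 and 22.7 CPM in U937 SKO, against 1.63, 1.28 and 1.70 CPM in U937 sgControl, and differed by 4.35 ± 0.17. TNFSF9 (4-1BB ligand) differed by 2.44 ± 0.15 and CD47, the signal that restrains phagocytosis, by 0.60 ± 0.06. ULBP1, a ligand of the activating receptor NKG2D, rose in both lines and by more in THP-1 (-0.87 ± 0.29). CD276, CD70 and TNFSF9 lie in bins whose median U937 effect was 0.34 (chromosome 15) and 0.38 (chromosome 19). With each gene set against its bin, their differences were 3.14, 3.06 and 2.02.

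Monocyte and macrophage genes were higher in difference for 21 (47.7%) and lower for 9 (20.5%) of 44 tested members, beside 22.9% and 23.4% over all genes. The list's median difference was 0.73. With SKO, 28 members rose in U937 and 19 in THP-1, beside 24.4% and 20.5% of all genes. ITGAM (CD11b; 16:31259967-31332892, plus strand), an integrin chain of monocytes and granulocytes, had 69.0, 69.6 and 71.5 CPM in U937 SKO, against 3.80, 4.27 and 4.47 CPM in U937 sgControl. THP-1 cells showed 33.0, 34.2 and 33.1 CPM in SKO, against 61.3, 55.9 and 53.8 CPM in sgControl. The groups did not overlap in either line and the difference was 4.84 ± 0.09 (adjusted p = 2.5e-36). CD36 (7:80369575-80679277, plus strand), a scavenger receptor, had 204.9, 206.2 and 212.4 CPM in U937 SKO, against 50.0, 53.6 and 53.7 CPM in U937 sgControl. It had 10.3, 9.44 and 10.8 CPM in THP-1 SKO, against 51.5, 48.3 and 48.4 CPM in THP-1 sgControl. The sgControl levels of the lines were thus close, and SKO moved them apart, by 4.27 ± 0.07. TYROBP, a signalling adaptor, also moved oppositely, with a difference of 3.25 ± 0.14.

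Other members of the same list went the other way. CSF1R, the receptor of macrophage colony-stimulating factor, fell by 0.73 in U937 and rose by 0.52 in THP-1. CCR2, a chemokine receptor of classical monocytes, fell by 2.03 in U937 and rose by 0.22 in THP-1. LYZ (lysozyme) rose in both lines, by 0.84 in U937 and by 1.54 in THP-1, and S100A9, a calgranulin chain, by 0.90 in U937 and by 3.16 in THP-1. Its partner S100A8 rose by 2.28 in U937 and by 2.51 in THP-1, with no difference called (-0.23 ± 0.39, adjusted p = 0.70). MMP9, a secreted gelatinase, had 0.123, 0.160 and 0.060 CPM in U937 SKO, against 8.32, 6.53 and 7.52 CPM in U937 sgControl. In THP-1 the levels were 2.09, 1.64 and 1.14 CPM in SKO, against 2.30, 2.13 and 2.64 CPM in sgControl, where the effect of -0.54 was not called (adjusted p = 0.11).

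Progenitor genes were split, with 10 higher (40.0%) and 9 lower (36.0%) of 25 tested, beside 22.9% and 23.4% over all genes. The lower ones included receptors and regulators of immature cells. FLT3 (13:28003274-28100592, minus strand), a cytokine receptor of progenitors, had 1.68, 1.25 and 1.42 CPM in U937 SKO, against 8.25, 7.65 and 7.35 CPM in U937 sgControl. Its THP-1 levels were 205.9, 194 and 199.3 CPM in SKO, against 32.2, 32.1 and 33.8 CPM in sgControl. SKO was lowest in U937 and highest in THP-1, and the difference was -5.02 ± 0.11 (adjusted p = 5.2e-33). KIT (4:54657918-54740715, plus strand), the stem cell factor receptor, had 0.099, 0.506 and 0.121 CPM in U937 SKO, against 1.84, 1.10 and 1.53 CPM in U937 sgControl. It had 59.1, 59.1 and 61.9 CPM in THP-1 SKO, against 14.5, 15.03 and 15.2 CPM in THP-1 sgControl. Its U937 levels were low in both groups, and the difference was -4.60 ± 0.29. ERG (21:38380027-38661780, minus strand), an ETS factor of haematopoietic stem cells, fell by 0.58 in U937 and rose by 3.21 in THP-1, where all sgControl libraries were below 1 CPM (0.549, 0.222 and 0.496).

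MYC, a regulator of growth and ribosome production, had 180.5, 173.2 and 173.6 CPM in U937 SKO, against 515.8, 489.9 and 504.1 CPM in U937 sgControl. In THP-1 it had 274.1, 269.6 and 265.4 CPM in SKO, against 227.6, 219.2 and 218.2 CPM in sgControl. The groups did not overlap, and the difference was -1.80 ± 0.05. Of the 20 tested transcription factors on the progenitor list, 9 had a higher and 7 a lower difference, beside 22.9% and 23.4% over all genes. GATA2, a stem cell and progenitor factor, was among the higher ones (1.52 ± 0.24). CSF3R, the receptor of granulocyte colony-stimulating factor, rose in both lines and by more in U937 (1.45 ± 0.06). In whole-culture RNA, fewer cells of a type and less RNA per cell cannot be told apart, which holds for all of these values.

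**Figure D4:**
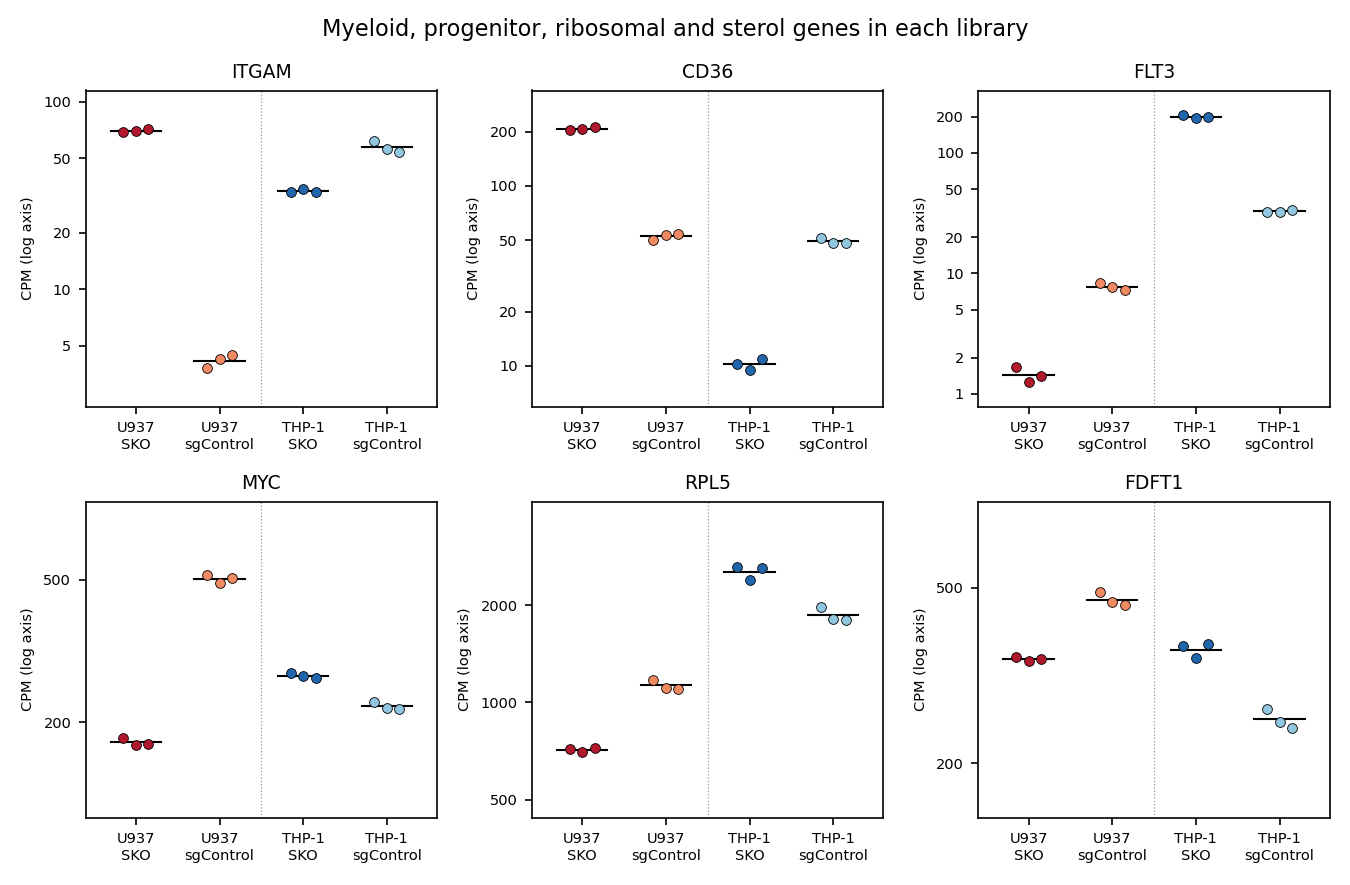
Level (CPM, log axis) of 6 genes in each library, by group, with SKO left of sgControl in each line and bars at group means. ITGAM and CD36 are higher in SKO than in sgControl in U937 and lower in THP-1, and FLT3, MYC, RPL5 and FDFT1 are lower in U937 SKO and higher in THP-1 SKO.

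Cytosolic ribosomal protein genes moved as a block, in directions opposite to those of the interferon-stimulated genes. Of 50 tested genes, the difference was lower for 46 and higher for 1, with a median of -0.69. In U937, 45 fell and 2 rose with SKO. In THP-1, 38 rose and none fell, and 36 fell in U937 while they rose in THP-1. RPL5, a large-subunit protein that binds 5S rRNA, had 715.3, 702.4 and 720.6 CPM in U937 SKO, against 1176, 1109 and 1103 CPM in U937 sgControl. The THP-1 libraries had 2622, 2390 and 2601 CPM in SKO, against 1969, 1819 and 1803 CPM in sgControl. The groups did not overlap and the difference was -1.11 ± 0.05 (adjusted p = 7.7e-21). RPL22 gave the difference of largest size among the named ones, -1.22 ± 0.06. RPL10, on the X chromosome, was the only higher one (0.20 ± 0.07), and RPS4X, RPS15 and RPLP1 were not called. Against bin medians the list had 0 higher and 48 lower, and RPL10 turned to -0.55 ± 0.07 (adjusted p = 3.7e-09), with a U937 effect of -0.43. Levels summed over the list ran from 35600 to 36600 CPM in U937 SKO, against 45900 to 50300 CPM in U937 sgControl. They ran from 57500 to 62000 CPM in THP-1 SKO, against 49900 to 56300 CPM in THP-1 sgControl. Ribosomal protein genes have many processed copies, so reads lost to them are uncertain.

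Genes of cholesterol and fatty acid synthesis followed a similar pattern, with 20 lower (83.3%) and 3 higher (12.5%) of 24 tested and a median difference of -0.62. Over all genes the shares were 23.4% and 22.9%. In U937, 21 fell and 3 rose, beside 24.2% and 24.4% of all genes. In THP-1, 10 rose and 7 fell, beside 20.5% and 21.2%, and 8 moved down in U937 and up in THP-1, beside 5.78%. Sterol genes made up 7 of these 8. FDFT1 (squalene synthase) had 349.2, 341.4 and 345 CPM in U937 SKO, against 490.3, 463.7 and 456 CPM in U937 sgControl. It had 368.1, 345.8 and 372 CPM in THP-1 SKO, against 265.1, 248.6 and 240.7 CPM in THP-1 sgControl. The difference was -0.97 ± 0.06, with the groups apart in both lines. SQLE (squalene epoxidase) gave -1.11 ± 0.05 and SREBF2, the transcription factor of the pathway, -0.75 ± 0.06. All 3 of these fell in U937 and rose in THP-1. The 5 fatty acid genes all had a lower difference, but 4 of the 5 also fell in THP-1, as for the desaturase FADS1 (-1.41 in U937 and -0.29 in THP-1). INSIG1, which holds back SREBP processing, was higher (1.33 ± 0.05), with 529, 531.5 and 548.5 CPM in U937 SKO, against 192.9, 194.2 and 192.2 CPM in U937 sgControl. Its bin on chromosome 7 had a median U937 effect of 0.51, and against it the difference of INSIG1 was 0.81.

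**Figure D5:**
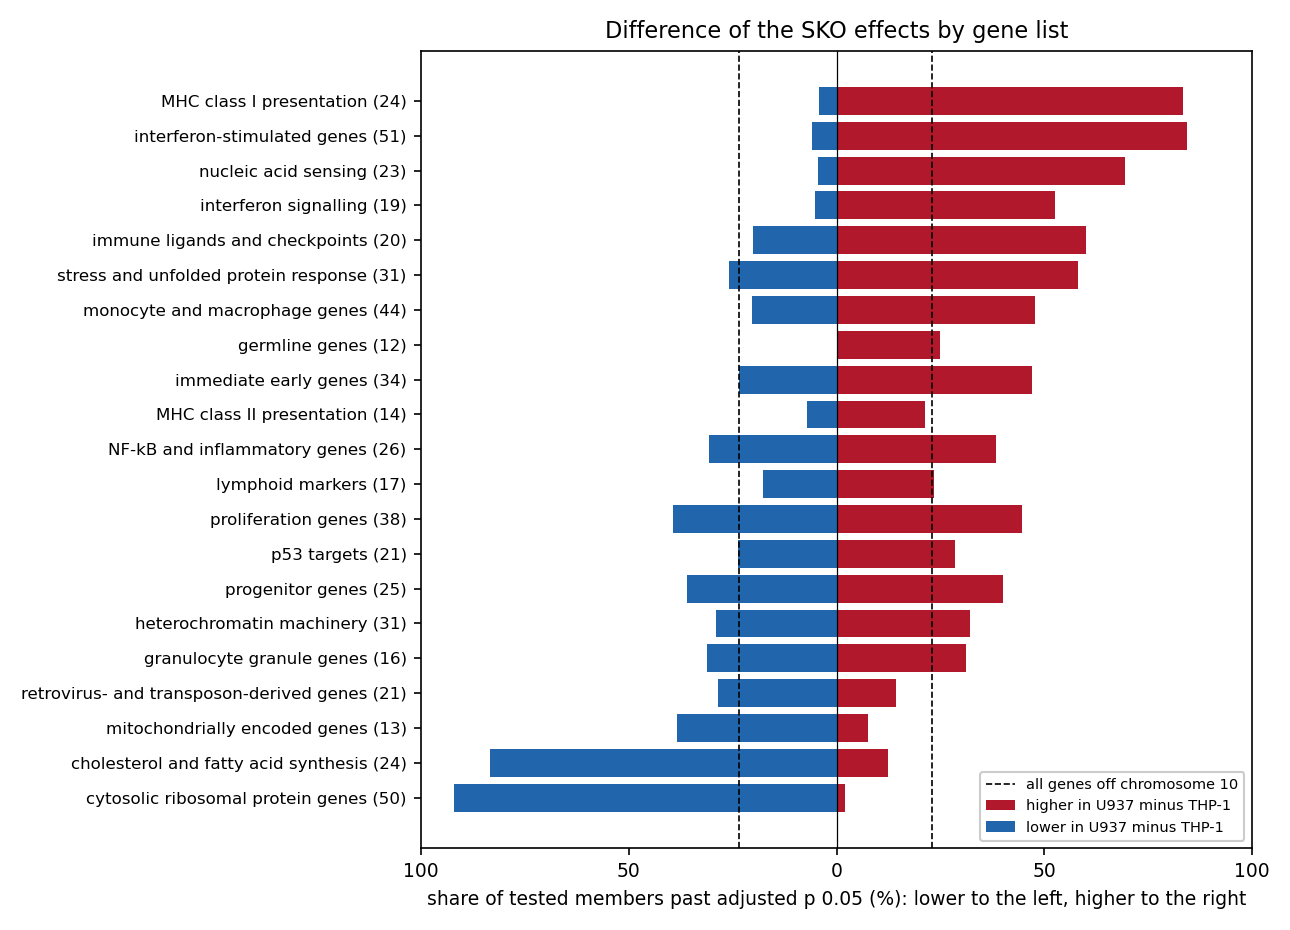
Share (%) of the tested members, off chromosome 10, whose difference (U937 effect minus THP-1 effect) was higher (red bars, to the right) or lower (blue bars, to the left), for the gene lists with at least 12 tested members (number in brackets), with dashed lines at the shares over all genes. The lists of interferon-stimulated and MHC class I genes are mostly higher, and ribosomal protein and lipid synthesis genes mostly lower, beside 22.9% higher and 23.4% lower over all genes.

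Proliferation genes divided by role. Of 21 replication genes, 14 had a lower and 6 a higher difference, with a median of -0.24, and 12 rose in THP-1. Of 17 mitosis genes, 11 had a higher and 1 a lower difference, with a median of 0.17, and 13 fell in THP-1. Over all genes, 22.9% had a higher and 23.4% a lower difference, and 20.5% rose and 21.2% fell in THP-1. The 6 higher replication genes were thus near the share over all genes. The values are small, as for the helicase subunit MCM4 (-0.20 in U937 and 0.29 in THP-1, or -0.10 and 0.15 against its bin) and the clamp loader subunit RFC3 (-0.59 in U937 and 0.13 in THP-1). The helicase subunit MCM3, in the chromosome 6 bin that was shifted in U937, had a difference of 0.57 ± 0.05, which turned to -0.21 against its bin. The higher count over the whole list was 17 of 38 and dropped to 8 without U937 SKO replicate 2, U937 SKO replicate 3 or U937 sgControl replicate 3, and to 10 with no filter on low counts.

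Stress genes divided by role too. For protein folding genes of the endoplasmic reticulum, the difference was higher in 12 of 14 and lower in 1, the median was 0.81, and 7 of them rose in U937 and fell in THP-1. Over all genes, 22.9% were higher, 23.4% lower, and 7.76% rose in U937 and fell in THP-1. HSPA5 (BiP), the main chaperone there, rose by 0.12 in U937 and fell by 0.57 in THP-1. DNAJB9, its cochaperone, gave a difference of 1.98 ± 0.13, and EDEM1, which directs misfolded glycoproteins to degradation, 1.13 ± 0.06. The amino acid and integrated stress genes had 6 higher and 7 lower of 17. PDIA4, a disulfide isomerase, differed by 1.05 ± 0.06, and by 0.53 against its bin on chromosome 7.

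Immediate early genes were higher for 16 (47.1%) and lower for 8 (23.5%) of 34, with a median difference of 0.55, and 18 of them fell in THP-1. Over all genes, 22.9% were higher, 23.4% lower, and 21.2% fell in THP-1. EGR1, a zinc finger factor of the growth response, had 4.47, 4.69 and 4.40 CPM in U937 SKO, against 15.5, 16.01 and 14.9 CPM in U937 sgControl. Levels in THP-1 were 14.8, 13.3 and 14.04 CPM in SKO, against 108.2, 125.2 and 127.5 CPM in sgControl. It fell in both lines and by more in THP-1, for a difference of 1.33 ± 0.11. JUNB, an AP-1 subunit, rose by 0.27 in U937 and fell by 0.80 in THP-1. Against its bin on chromosome 19 its U937 effect was not called (-0.11, adjusted p = 0.25) and its difference was 0.65, in place of 1.07. BTG2, an antiproliferative gene, rose by 1.32 in U937 and fell by 0.78 in THP-1. Among 21 p53 targets, 6 were higher (28.6%) and 5 lower (23.8%), shares near the 22.9% and 23.4% over all genes. CDKN1A (p21), an inhibitor of cyclin-dependent kinases, had 12.8, 12.2 and 14.1 CPM in U937 SKO, against 4.95, 3.59 and 4.27 CPM in U937 sgControl. THP-1 cells showed 20.1, 21.9 and 20.5 CPM in SKO, against 138.9, 124.8 and 120.2 CPM in sgControl. The movement was opposite without overlap, with a difference of 4.22 ± 0.12.

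The heterochromatin machinery itself showed no common direction, with 10 higher (32.3%) and 9 lower (29.0%) of 31 tested genes and a median difference of -0.02. Against bin medians the counts were 6 higher and 10 lower, beside 3871 and 4255 of all 18035 genes off chromosome 10. DNMT3A, a DNA methyltransferase, rose by 0.91 in U937 and fell by 0.48 in THP-1. CBX3 (HP1 gamma), a reader of H3K9 methylation, fell by 0.32 in U937 and rose by 0.30 in THP-1. TRIM28 (KAP1), the corepressor recruited by KRAB zinc finger proteins, fell by 0.35 in U937 and was not called in THP-1 (0.05, adjusted p = 0.26). Genes derived from retroviruses and transposons had 3 higher and 6 lower of 21 tested (14.3% and 28.6%, beside 22.9% and 23.4% over all genes), and 1 higher and 9 lower against bin medians.

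Outside the lists, some genes had 0 or few reads in 1 group. ADAMTS9, a secreted metalloprotease, averaged 35.7 CPM in U937 SKO and 8.89 CPM in U937 sgControl, and 0.011 CPM in THP-1 SKO (2 reads over the group) and 37.7 CPM in THP-1 sgControl (5903 reads). KCND2, a potassium channel subunit, averaged 1.85 CPM in U937 SKO with 0 reads in U937 sgControl, and 1.55 CPM in THP-1 SKO against 14.5 CPM in THP-1 sgControl. In the other direction, HVCN1, a proton channel, had 0 reads in U937 SKO and 5.13 CPM in U937 sgControl, and 26.0 CPM in THP-1 SKO against 9.84 CPM in THP-1 sgControl. NAV3, a neuron navigator protein, had 0 reads in U937 SKO and 0.441 CPM in U937 sgControl, and 57.2 CPM in THP-1 SKO against 8.57 CPM in THP-1 sgControl. These are given as levels, since a fitted difference against a group at or near 0 reads depends on the prior count and is no bound. Reads were counted without strand, so an antisense partner cannot be told apart from any gene named here.

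Among the opposite movers with counts in all groups, TP53INP2, a regulator of autophagy (20:34704339-34713439, plus strand), averaged 102.5 CPM in U937 SKO and 23.5 CPM in U937 sgControl, and 3.81 CPM in THP-1 SKO and 18.2 CPM in THP-1 sgControl (difference 4.38 ± 0.09). CD9, a tetraspanin, averaged 6.14 CPM in U937 SKO and 1.37 CPM in U937 sgControl, and 1.92 CPM in THP-1 SKO and 7.17 CPM in THP-1 sgControl (4.05 ± 0.26). The reverse pattern included CLEC5A, a myeloid lectin that signals through DAP12 (7:141927357-141947007, minus strand), at 9.42 CPM in U937 SKO and 81.5 CPM in U937 sgControl, and 1.14 CPM in THP-1 SKO and 0.080 CPM in THP-1 sgControl, which is 12 reads over the group (-6.94 ± 0.32). HSH2D, an adaptor of lymphocyte activation (19:16134028-16158575, plus strand), averaged 0.691 CPM in U937 SKO and 37.9 CPM in U937 sgControl, and 3.89 CPM in THP-1 SKO and 0.897 CPM in THP-1 sgControl (-7.87 ± 0.24). EPB41L3, a cytoskeletal protein 4.1 relative, averaged 0.585 CPM in U937 SKO and 42.6 CPM in U937 sgControl, and 4.39 CPM in THP-1 SKO and 0.731 CPM in THP-1 sgControl (-8.79 ± 0.24).

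On chromosome 10 the difference was higher for 381 of 680 genes (56.0%) and lower for 19 (2.79%). Set against the median of their bins, 139 were higher and 151 lower, beside 3871 and 4255 of the 18035 other genes. The bin medians were taken from these same genes, so a near-even split follows from the procedure and is no separate result. Members whose difference exceeded the shift of their bin included the 4 IFIT genes, antiviral proteins that bind foreign RNA, all lower in THP-1 SKO than in sgControl. IFIT1's promoter holds 2 matches to the letters above, shown because its THP-1 fall was the deepest of the family.
IFIT1, chr10:89392477-89392559, plus strand: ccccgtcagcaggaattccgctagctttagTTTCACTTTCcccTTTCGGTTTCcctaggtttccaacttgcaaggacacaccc
IFIT1 had 2.22, 1.70 and 1.63 CPM in U937 SKO, against 2.45, 1.87 and 1.47 CPM in U937 sgControl, groups that overlap (effect -0.06, adjusted p = 0.91). In THP-1 the levels were 0.301, 0.034 and 0.349 CPM in SKO, against 18.3, 19.7 and 17.97 CPM in sgControl. Its difference of 6.30 ± 0.39 was 5.38 ± 0.39 against its bin. IFIT3 rose by 0.55 in U937 (adjusted p = 0.0085) and fell by 3.91 in THP-1, a difference of 4.46 ± 0.25, or 3.54 ± 0.25 against its bin. IFIT2 gave 4.71 ± 0.24 (3.79 ± 0.24 against its bin).

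Other chromosome 10 genes also stood off the chromosome's median. BLNK, a B cell linker adaptor (10:96189171-96271587, minus strand), averaged 13.6 CPM in U937 SKO and 1.64 CPM in U937 sgControl, and 0.738 CPM in THP-1 SKO and 3.87 CPM in THP-1 sgControl (5.42 ± 0.28). SRGN, the granule proteoglycan serglycin, averaged 3569 CPM in U937 SKO and 1078 CPM in U937 sgControl, and 1850 CPM in THP-1 SKO and 4521 CPM in THP-1 sgControl (3.02 ± 0.06, or 2.03 against its bin). VSIR (VISTA), a checkpoint protein, differed by 2.18 ± 0.06 (1.19 against its bin), and its THP-1 effect of -0.82 turned to 0.18 against its bin. MKI67, the Ki-67 proliferation antigen, kept a difference of 1.29 against its bin (2.10 ± 0.07 without it), while the 0.87 of CDK1, the mitotic kinase, did not hold against its bin (-0.12, adjusted p = 0.10).

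Markers of other cell types moved with the groups in part. Of 14 erythroid markers, 2 passed the filter, and their summed level was 14 to 14.9 CPM in U937 SKO, 6.53 to 7.57 CPM in U937 sgControl, 5.62 to 7.30 CPM in THP-1 SKO and 5.62 to 8.48 CPM in THP-1 sgControl. Summed lymphoid markers (17 of 20 tested, mostly CD4 and NKG7) were 412 to 416, 471 to 495, 197 to 210 and 334 to 378 CPM in the same order of groups, while MS4A1 and CD3G were below the filter. Megakaryocyte markers (6 of 10 tested) summed to 1.17 to 2.0, 0.943 to 1.82, 7.33 to 9.42 and 2.08 to 3.35 CPM. Dendritic markers (8 of 12 tested) were 40.6 to 43.0, 43.2 to 45.9, 21.5 to 26.7 and 32.8 to 34.5 CPM in that order. Stromal and epithelial markers (6 of 14 tested), of which COL1A2, COL3A1, DCN, LUM and EPCAM were below the filter, were 181 to 192, 90.2 to 98.7, 390 to 413 and 605 to 666 CPM, mostly PECAM1. Mitochondrially encoded genes, a sign of RNA quality, took 51700 to 53800, 52100 to 56600, 50800 to 57500 and 51500 to 52500 CPM. The part of these markers in the results was not tested.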

How the data were processed

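The labels' protocols describe poly(A) selection and a directional library kit. The submitters' processing notes name fastp 0.23.4 for trimming, STAR 2.7.11b with hg38 for alignment and Subread 2.0.6. The deposited values are raw whole-number read counts per gene. Per the file headers, the authors made them with featureCounts 2.0.6 with GENCODE 38 gene names, without strand and with paired reads counted singly. Of 59428 rows, 698 bear an Ensembl identifier and 75 have exons on several sequences. Of these counts, which cover the 18 untreated U937 and THP-1 libraries, no per-sample column was left unused. The other libraries of the series were not used.

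The test was edgeR 4.0.16's, run in R 4.3.3. All 18 untreated U937 and THP-1 libraries (6 groups, no covariates, 12 residual degrees of freedom) entered 1 fit after the default expression filter and scaling by trimmed mean of M-values. The groups of a double knockout lent their spread and also entered the filter and the scaling. With only the 12 libraries of the 4 groups, 96.9% of calls were kept. The robust quasi-likelihood test was used, adjusted over 18715 genes. The standard error is the log2 value divided by the square root of F. The procedure was tested on simulated data, drawn as independent libraries. That test therefore cannot show how the p-values behave if the libraries of a group are technical. Replicates of each group differed by more than sampling noise.

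Members and gene lists were chosen with earlier results of these data known. The naming rule took SUV39H1 and SUV39H2, up to 4 genes of each list with the largest called difference at a mean log2 CPM of at least 1, 6 per direction outside the lists and 6 per opposite direction, 5 per direction on chromosome 10, and 5 per direction moving the same way. The text names part of them, and further list members named as examples of a role were chosen after their values were seen.

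Alternatives were DESeq2 1.42.0 size factors and its test, no filter, 12 libraries only, the replicate number as a block, each library left out, chromosome 10 left out, and each gene set against the median effect of its 20 Mb bin (bins of at least 30 genes). Added after seeing the data was a term for a code that 3 of the 18 library names carry (U937 SKO 1, U937 sgControl 2 and U937 double knockout 2). Some genes are not reported here.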

Additional observations from a re-analysis of the deposited data

Results flagged for a closer look

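The test of the difference between the lines, with each line's effect called in opposite directions, singled out 1522 genes (all chromosomes) that rose with SKO in U937 and fell in THP-1, and 1044 that fell in U937 and rose in THP-1. The 6 per direction outside the gene lists that rank first by the smaller of their 2 effects are given as the fitted difference, U937 effect minus THP-1 effect, on the log2 scale; other opposite genes have larger differences. Up in U937 and down in THP-1 were ADAMTS9 (13.33), KCND2 (12.56), NLRP7 (6.86), TP53INP2 (4.38), LHX6 (4.27) and CD9 (4.05). Down in U937 and up in THP-1 were NAV3 (-10.03), EPB41L3 (-8.79), HSH2D (-7.87), CLEC5A (-6.94), OLFML2A (-5.12) and FGF13 (-4.09). For ADAMTS9, KCND2, NLRP7 and NAV3 a group is at or near 0 reads, and LHX6, OLFML2A and CLEC5A have a group of at most 12 reads, so these fitted values depend on the prior count and are no bound. In THP-1, NLRP7 had 0 reads over SKO and 12 over sgControl, groups that overlap, and LHX6 had 10 and 48. The THP-1 falls of NLRP7 and LHX6 thus rest on few reads in both groups. Groups hold 3 libraries, too few for a check of single outlying samples.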

How the results depend on the processing

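Of the 8752 calls, 86.5% (each gene against its 20 Mb bin) to 99.0% (DESeq2's test, or the code term added after seeing the data) stayed the same way under the alternatives, and 90.0% to 95.1% with a library left out. Without 1 library, higher differences ranged from 3807 to 4434 and lower ones from 4045 to 4670. Interferon-stimulated genes stayed at 42 to 43 higher and 3 to 4 lower. Against bins, chromosome 10 gave 139 higher and 151 lower in place of 381 and 19, a near-even split that follows from medians taken from these same genes. In that setting SUV39H2 (-0.431), MCM3 (-0.207) and RPL10 (-0.55) reversed, and the difference of ATRX was no longer called (-0.039, adjusted p = 0.70). Some genes with no called difference changed sign when a library was left out, with ranges of -0.657 to 0.058 for B4GALNT1, -0.486 to 0.792 for GPR27, -0.432 to 0.242 for OTOA and -0.614 to 0.13 for S100A8. For these the cause was not tested. GBP5 passed with DESeq2's test (-0.55, adjusted p = 0.036) and with no filter (-0.57, adjusted p = 0.018). Over all alternatives its adjusted p ran from 0.004 to 0.45. The largest shift of the median difference was -0.081, without U937 sgControl replicate 3. With the replicate number as a block, 4530 differences were higher and 4255 lower, and 98.7% of calls were kept. Same-numbered libraries deviated together by correlations of 0.25, 0.03 and -0.02 in U937 and 0.20, 0.12 and 0.00 in THP-1, and not every library correlated best with its own number. Deviations from a mean of 3 libraries cannot settle whether the numbers pair them. Depth limits genes with few reads in a group, whose fitted differences depend on the prior count.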

Other observations

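Several gene groups moved without a shared direction between the lines. NF-kB and inflammatory genes had 10 higher (38.5%) and 8 lower (30.8%) differences of 26 tested, beside 22.9% and 23.4% over all genes off chromosome 10. BCL2A1, an anti-apoptotic BCL2 relative, rose by 2.18 in U937 and fell by 1.37 in THP-1 (difference 3.55 ± 0.29 in edgeR's quasi-likelihood test with adjustment over all genes, adjusted p = 2.0e-13). The higher count of that list was 6 without U937 SKO replicate 2, and its lower count 5 without THP-1 SKO replicate 2. Granulocyte granule genes had 5 higher and 5 lower of 16 (31.2% each). CTSG (cathepsin G) fell by 0.83 in U937 and rose by 0.50 in THP-1, while CEACAM6, a surface glycoprotein of granulocytes, rose in both lines, by 3.59 in U937 and by 1.51 in THP-1. Germline genes were mostly below the filter on low counts, with 12 of 31 tested, 3 of them higher and 0 lower. Of the genes that moved the same way in both lines with no difference called, RGS16, a brake on G protein signalling, averaged 5.99 CPM in U937 SKO and 19.7 CPM in U937 sgControl, and 11.4 CPM in THP-1 SKO and 31.3 CPM in THP-1 sgControl. It fell by 1.72 in U937 and by 1.46 in THP-1.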
